A study of Mus musculus with 2 samples.

Results

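The miR-30 family was examined in gastrocnemius tissue, a calf muscle, from female B6CASTF1/J mice aged 36 days. B6CASTF1/J animals are first-generation hybrids of the C57BL/6 and CAST/EiJ strains. The family was taken as the 6 genes with the GENCODE M21 symbols Mir30a, Mir30b, Mir30c-1, Mir30c-2, Mir30d and Mir30e, out of 2202 microRNA genes in the count tables. All 6 symbols matched 1 gene each, and all 6 genes passed the detection minimum of 10 reads in both libraries, as did 273 genes in all. There were 2 libraries in a single group, numbered in the labels as biological replicates 1 and 2. The labels give no treatment and no genotype other than the hybrid strain. They name separate females but 1 shared donor identifier, so the spread between the libraries may be technical.

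MicroRNAs are short RNAs cut from a hairpin precursor, and either arm of the hairpin (5p or 3p) can be loaded into the silencing complex. Bases 2 to 8, the seed, carry most of the pairing with target messenger RNAs, and microRNAs with the same seed form a family with overlapping targets. The miR-30 family is abundant in heart and skeletal muscle. In muscle cell cultures it is known to favour myogenic differentiation and to repress Tnrc6a, a component of the silencing complex itself, and in heart it is known to repress connective tissue growth factor.

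RefSeq mature and hairpin sequences (build GRCm38.p6) were found for 4 of the 6 genes, Mir30a, Mir30c-1, Mir30c-2 and Mir30e. Mir30b and Mir30d are described by their counts and positions. The 5p sequences are shown first, since they define the family, with the seed in capitals.
miR-30a-5p: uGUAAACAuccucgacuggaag
miR-30e-5p: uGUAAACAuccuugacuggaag
miR-30c-5p: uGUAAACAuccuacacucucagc
miR-384-5p: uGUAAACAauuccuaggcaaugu
The seed GUAAACA was found in 5 mature entries of the table, 4 of them from the family. The remaining entry was miR-384-5p, from the gene Mir384 on chromosome X. Counted from 1 at the 5′ end, miR-30a-5p and miR-30e-5p differed by a single substitution, C13U, and matched at 21 of 22 bases. Each of them differed from miR-30c-5p at 5 of 22 aligned bases. The miR-30c-5p sequence was the only family sequence present in 2 hairpins of the table, those of Mir30c-1 and Mir30c-2.

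The 3p arms of the 4 genes with sequences fell into 2 other seed groups, shown with the seed in capitals. They are shown because reads of either arm enter the count of a gene.
miR-30a-3p: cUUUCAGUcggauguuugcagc
miR-30e-3p: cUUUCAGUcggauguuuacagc
miR-30c-1-3p: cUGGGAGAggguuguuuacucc
miR-30c-2-3p: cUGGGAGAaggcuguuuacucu
The 3p sequences of Mir30a and Mir30e again differed by 1 substitution, G18A. Those of Mir30c-1 and Mir30c-2 differed at 3 of 22 bases. The seed UUUCAGU occurred in no other mature entry, and UGGGAGA occurred in 1 other, miR-6958-5p. No mature entry was found for Mir30b or Mir30d, so their 3p seeds are not covered.

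The hairpins of Mir30c-1 and Mir30c-2 are shown whole, with the longest stretch that they share in capitals, because this stretch limits which reads can be counted.
Mir30c-1: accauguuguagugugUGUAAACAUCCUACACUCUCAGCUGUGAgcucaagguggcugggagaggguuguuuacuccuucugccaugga
Mir30c-2: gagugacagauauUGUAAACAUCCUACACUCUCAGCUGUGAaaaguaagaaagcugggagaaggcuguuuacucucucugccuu
The shared stretch was 28 bases long and began with the first base of miR-30c-5p, so it held that 23-base sequence and the 5 bases after it. A read that lies wholly within the stretch matches both genes. Reads that match several places stand in a summary row and belong to no gene, and the labels give the library size range as under 30 nucleotides. The counts of Mir30c-1 and Mir30c-2 would therefore hold no reads of miR-30c-5p itself. Between Mir30a and Mir30e the longest shared stretch was 18 bases, and between Mir30a or Mir30e and either Mir30c gene it was 12 bases. With 1 mismatch allowed, each mature sequence of Mir30a also matched the hairpin of Mir30e, and the reverse held too. Mir30b and Mir30d had no sequence to compare, so their likeness to the other genes is not known here. The number of mismatches allowed in alignment is not given in the sources used here. The hairpin sequences of the 4 genes were 71 to 92 bases long with a GC content of 42.9% (Mir30c-2) to 52.1% (Mir30a).

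The genes lie as neighbours at 3 loci, each with 2 hairpins on the same strand (positions from GENCODE M21, mm10). On chromosome 1, Mir30a (23272269 to 23272339, plus strand) overlapped no other annotated gene, and Mir30c-2 (23291701 to 23291784) lay 19361 bases downstream within an exon of the long noncoding RNA Gm27028. On chromosome 4, Mir30e (120772606 to 120772697, minus strand) and Mir30c-1 (120769534 to 120769622) were 2983 bases apart in an intron of Nfyc, which encodes a subunit of the CCAAT-binding factor NF-Y. Of the Nfyc transcripts, 6 spanned each hairpin and 0 had an exon there. On chromosome 15, Mir30d (68341208 to 68341289, minus strand) lay within an exon of the long noncoding RNA Gm20732. Its end also overlapped the unclassified transcript Gm37296 by 9 bases. Mir30b (68337415 to 68337510) was 3697 bases further downstream and overlapped Gm26621 by 16 bases. A microRNA gene named Mir30f is annotated on the plus strand over the whole Mir30e hairpin.

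**Figure D1:**
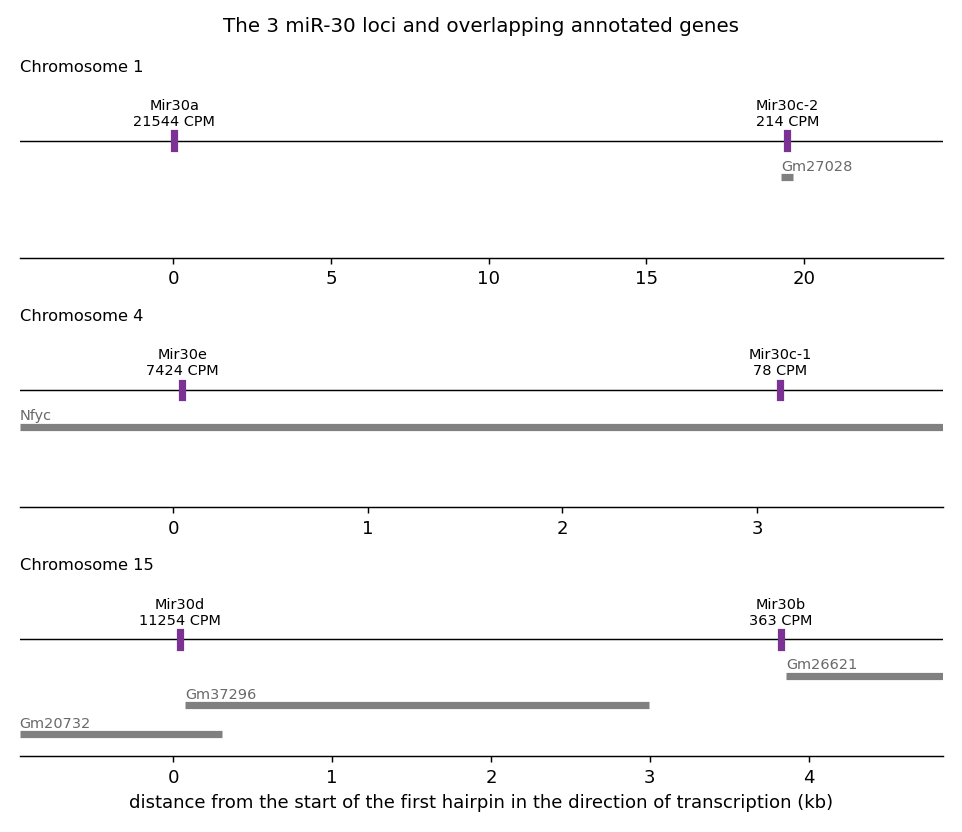
Maps of the 3 loci, with the distance in kb from the start of the first hairpin in the direction of transcription on each horizontal axis. Purple bars are the hairpins with their mean CPM, and grey bars are overlapping annotated genes (Nfyc, Gm20732 and Gm26621 run past the edge). At each locus the hairpin that lies first on its strand, Mir30a, Mir30e or Mir30d, had the higher level. The Mir30c counts leave out miR-30c-5p.

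Replicate 1 held 1593787 reads assigned to microRNA genes and replicate 2 held 2078101. Reads that match several places made up 75.4% and 77.6% of all reads. The 10 listed skeletal muscle genes found in the tables held 2.21% and 6.98% of gene-assigned reads, led by Mir206 with 32871 and 139295 reads. These shares count only reads placed at a single locus. They leave out microRNAs made by several genes to an unknown extent, so they do not measure the muscle microRNAs as a whole. Of the listed genes 7 passed the detection minimum, and the between-library test called 4 higher in replicate 2 and 0 lower. Over all detected genes it called 33.3% higher and 29.7% lower. The log2 ratios of the 7 genes, replicate 2 over replicate 1, ran from -0.73 to 3.83. The libraries also differed in markers of other cells. Both erythroid genes were lower in replicate 2 (3.73% and 0.898% of reads in sum), as were both smooth muscle genes (12.0% and 6.25%). Of 4 neural genes found in the tables none passed the minimum, and Mir9-1, Mir9-2 and Mir124a-1 had 0 reads in both libraries, where a count of 0 allows up to 1.88 CPM and 1.44 CPM of reads placed at a single locus. The miR-9 and miR-124 sequences each come from several genes, so this sets no limit on those microRNAs.

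The 6 miR-30 genes together had 68387 reads in replicate 1 and 80728 in replicate 2. That was 4.29% (95% Wilson interval 4.26 to 4.32) and 3.88% (3.86 to 3.91) of gene-assigned reads, or 4.09% ± 0.287 (SD, n = 2). Intervals cover only the counting error of reads within a library, and PCR copies of a molecule are not recognised. By reads placed at a single locus, the genes formed 2 tiers. Mir30a, Mir30d and Mir30e, of which the first and last share all but 1 base of their 5p sequence, held 98.5% and 98.2% of the family's reads. Mir30b, Mir30c-1 and Mir30c-2 held 1.46% and 1.76%. The Mir30c counts leave out miR-30c-5p, so the tiers do not order the microRNAs themselves.

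Levels are given in reads per 1000000 gene-assigned reads (CPM). They compare counts of reads, not molecules, because the yield of library preparation varies with the sequence, and no correction for length was made because each read stands for 1 short RNA. Mir30a, the single gene of the family with no overlapping annotation, was highest with 35650 and 43057 reads, or 22368 and 20719 CPM. Its mean level was 21544 ± 1166 CPM (SD, n = 2), 12th of the 273 detected genes. Mir30d of the Gm20732 exon followed with 19673 and 21124 reads, 12344 and 10165 CPM. The lower library of Mir30a lay above the higher library of Mir30d, and their mean levels differed 1.91-fold.

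Mir30e of the Nfyc intron had 12066 and 15125 reads, 7571 and 7278 CPM. Its mean of 7424 ± 207 CPM was 1.52-fold below that of Mir30d. The step from Mir30e down to Mir30b was the widest in the order, 20.5-fold. Mir30b had 624 and 695 reads, 392 and 334 CPM. Mir30c-2 had 293 and 507 reads, 184 and 244 CPM. Mir30c-1 had the fewest counted reads, 81 and 220, or 50.8 and 106 CPM. Both Mir30c counts leave out miR-30c-5p, so they give no level for that microRNA.

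The order was the same in both libraries, and the ranges of neighbouring genes in it did not overlap at any of the 5 steps. Mir30b exceeded Mir30c-2 by 2.13-fold in replicate 1 and 1.37-fold in replicate 2, and Mir30c-2 exceeded Mir30c-1 by 3.62-fold and 2.30-fold. In bulk tissue, fewer cells of a type and less RNA per cell cannot be told apart. Mir384, which has the same 5p seed, had 9 and 2 reads and did not reach the detection minimum. Mir30f had 0 reads on its own strand in both libraries. A count without regard to strand gave Mir30e 0 reads as well.

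**Figure D2:**
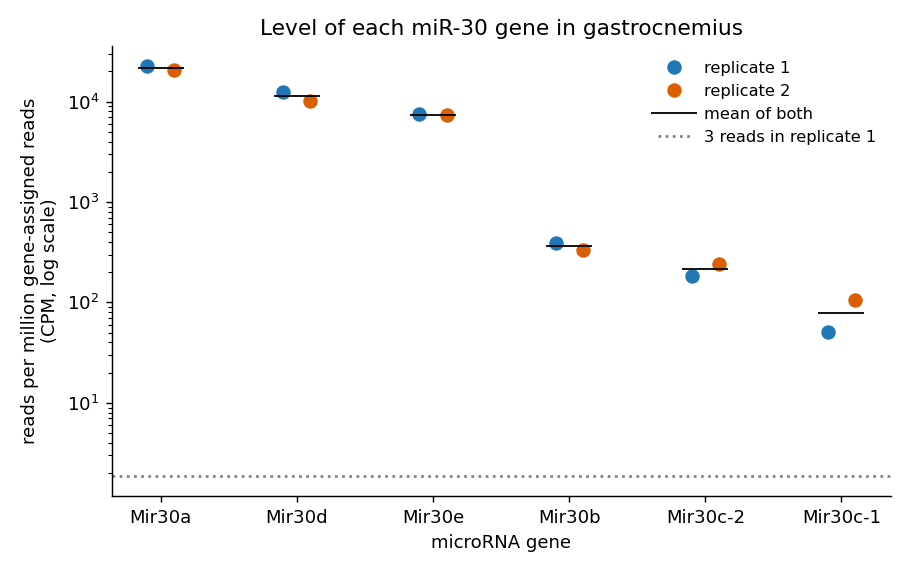
Level of each miR-30 gene in CPM on a log axis, with replicate 1 in blue, replicate 2 in orange and the mean as a black line. The dotted line is the 1.88 CPM that 3 reads give in replicate 1. Mir30a, Mir30d and Mir30e sit at 7278 CPM or more, and Mir30b, Mir30c-2 and Mir30c-1 at 392 CPM or less. The Mir30c counts leave out miR-30c-5p.

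Among all detected genes the 6 members ranked 12, 19, 25, 98, 121 and 173 by mean level of reads placed at a single locus. Mir30a stood between Mirlet7d (18299 and 26583 CPM) and the erythroid Mir451a (34584 and 8362 CPM). Mir30d stood between Mirlet7b and Mir322, and Mir30e between Mir21a and Mir196b. Mir30b was next to Mir15b and Mir34a, Mir30c-2 next to Mir467d and Mir615, and Mir30c-1 next to Mir543 and Mir664. In all 12 of these pairs the ranges of the libraries overlapped, so the place of a member relative to its neighbours is not resolved. Mir30e ranked 24 in each library. Mir30c-1 ranked 192 in replicate 1 and 153 in replicate 2.

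**Figure D3:**
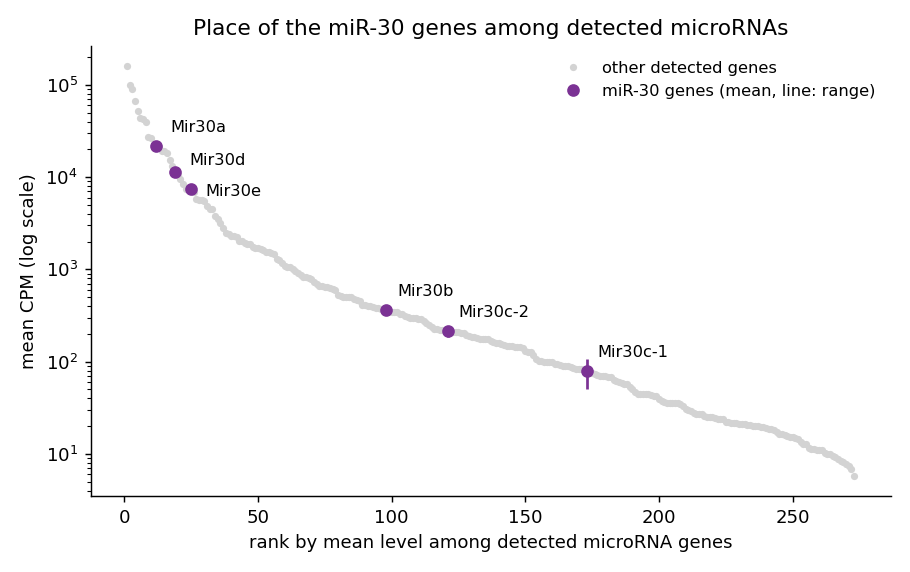
Mean CPM (log axis) against rank for the 273 detected microRNA genes, with miR-30 genes in purple and a line for the range of the libraries. Mir30a, Mir30d and Mir30e lie within the first 25 ranks, and the other members lie at ranks 98, 121 and 173. The Mir30c counts leave out miR-30c-5p.

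The division of the family's reads was of similar proportions in both libraries for the abundant genes. Mir30a held 52.1% (51.8 to 52.5) and 53.3% (53.0 to 53.7) of the family's reads, Mir30d 28.8% (28.4 to 29.1) and 26.2% (25.9 to 26.5), and Mir30e 17.6% (17.4 to 17.9) and 18.7% (18.5 to 19.0). Mir30b held 0.912% (0.844 to 0.987) and 0.861% (0.799 to 0.927). Mir30c-2 held 0.428% (0.382 to 0.480) in replicate 1 and 0.628% (0.576 to 0.685) in replicate 2, and Mir30c-1 held 0.118% (0.0953 to 0.147) and 0.273% (0.239 to 0.311). The Mir30c shares leave out miR-30c-5p. The counting intervals of the libraries overlapped for Mir30b and for no other member. By locus, the chromosome 1 genes held 53.3% ± 0.994 of the family's reads, the chromosome 15 genes 28.4% ± 1.88 and the chromosome 4 genes 18.4% ± 0.881 (SD, n = 2).

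**Figure D4:**
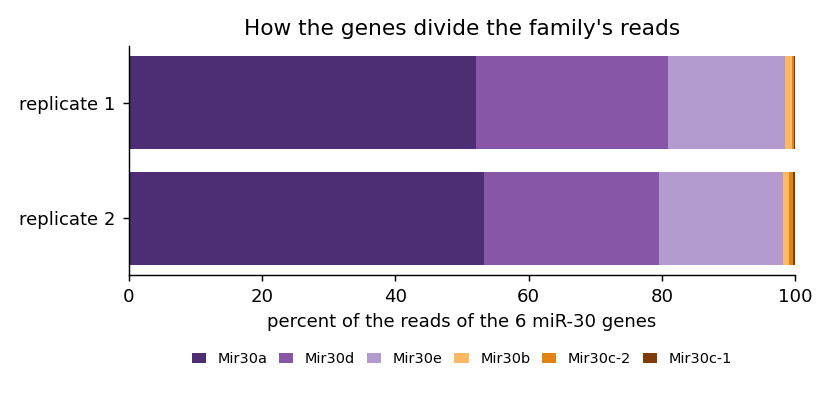
Share of the family's reads taken by each of the 6 genes, in percent, with 1 bar per library. Mir30a, Mir30d and Mir30e fill 98.5% of the bar in replicate 1 and 98.2% in replicate 2. The Mir30c counts leave out miR-30c-5p.

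Within each locus, the hairpin that lies first on its strand had many times the reads of its neighbour. Whether both hairpins of a locus share a transcript was not tested. The ratios within a locus do not depend on how the libraries are scaled. Mir30a had 122 times the reads of Mir30c-2 in replicate 1 and 84.9 times in replicate 2, a mean log2 ratio of 6.67 ± 0.37 (SD, n = 2). Mir30e had 149 times and 68.8 times the reads of Mir30c-1, a mean log2 ratio of 6.66 ± 0.79. Mir30d had 31.5 times and 30.4 times the reads of Mir30b, a mean log2 ratio of 4.95 ± 0.04. The ratios with a Mir30c gene cover only reads placed at a single locus, which leaves out miR-30c-5p, so they do not compare the microRNAs themselves.

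The chromosome 15 ratio was equal in the libraries within counting error, 1.04-fold higher in replicate 1 with an exact conditional 95% interval of 0.928 to 1.16. The ratio of Mir30a to Mir30c-2 was 1.43-fold higher in replicate 1 (1.24 to 1.66), and that of Mir30e to Mir30c-1 was 2.17-fold higher (1.67 to 2.83). Both differences come with a higher Mir30c count in replicate 2.

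The libraries were then set against each other gene by gene, with TMM scaling and a two-sided exact binomial test, adjusted by Benjamini-Hochberg over the 273 detected genes. This compares 2 libraries and not conditions, and it has no replicate check. Over all detected genes the test called 172, which is 63.0%, so a call alone carries little information. Of the miR-30 genes it called 4 of 6, with 2 higher and 2 lower in replicate 2, and scaling by total reads instead gave 2 higher and 4 lower. Over all detected genes, 33.3% were called higher and 29.7% lower with TMM scaling, and total-read scaling gave 28.6% and 33.7%. The median log2 ratio of the 6 genes, replicate 2 over replicate 1, was -0.02, beside 0.02 over all detected genes. The median size of the log2 ratio regardless of sign was 0.19 for the members and 0.36 for all detected genes.

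Mir30c-1, the member with the fewest counted reads, had a 2.18-fold higher level in replicate 2 (95% interval 1.68 to 2.85, adjusted p = 1.1e-09 by the exact binomial test). Mir30c-2 was 1.39-fold higher (1.20 to 1.61, adjusted p = 1.5e-05 by the same exact test). The genes called lower, Mir30d and Mir30a, were 1.16-fold (1.14 to 1.18) and 1.03-fold (1.02 to 1.05) lower in replicate 2. Mir30e had a ratio of 1.01 (0.983 to 1.03) and was not called, and its ratio was 0.961 and called with scaling by total reads. Mir30b had a ratio of 0.895 (0.802 to 0.999) and an adjusted p of 0.0715 by the exact test. It was called lower under 5 of 6 other settings and missed with counts taken regardless of strand, with adjusted p values from 0.0084 to 0.0595 by the exact test.

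Counting error is not the whole spread between libraries. The coefficient of variation given by edgeR's common dispersion, estimated from these same libraries, was 0.336. With edgeR's exact test at that dispersion 4 genes (1.47%) were called over all detected genes and 0 of the 6 miR-30 genes. Of the 6, 0 had an unadjusted p under 0.05. The dispersion was estimated with both libraries as a single group, so every difference between them counted as spread. Few calls are built into this test, and the 0 does not show equal levels. The exact binomial test called 4 of the 7 detected muscle genes, and both erythroid and both smooth muscle genes given above. Over all detected genes it called 63.0%. The part of these markers in the miR-30 ratios was not tested.

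**Figure D5:**
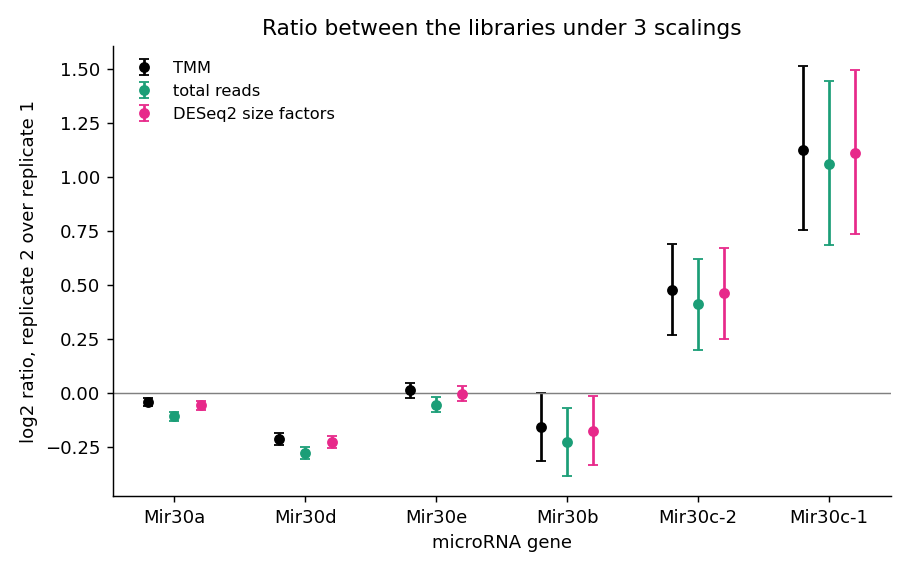
The log2 ratio of each miR-30 gene, replicate 2 over replicate 1, under TMM, total-read and DESeq2 scaling. Bars are exact 95% intervals for counting error. Mir30c-1 and Mir30c-2 lie above 0 under all 3 scalings, Mir30a and Mir30d lie below 0, and Mir30e changes side with the scaling.

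Of other broadly expressed families, the let-7 list (12 genes found in the tables) held 15.0% and 18.4% of reads, with a median log2 ratio of 0.35. The exact binomial test called 11 of its genes higher in replicate 2 and 0 lower. Over all detected genes the same test called 33.3% higher and 29.7% lower. The miR-26 list held 1.74% and 1.93%, and the miR-29 list held 0.400% and 0.202%, with 2 of 4 genes lower. All these shares count only reads placed at a single locus, which leaves out microRNAs made by several genes to an unknown extent, so they do not order the families. Differences between the families were not tested.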

How the data were processed

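The deposited tables hold raw read counts per microRNA gene, for build mm10 and annotation M21, per the deposited read-me files. The software that aligned and counted the reads is not given in the sources used here. The tables have no header, and the 3 count columns were read, from layout and values, as counts regardless of strand, on the gene's strand and on the opposite strand. Counts on the gene's strand were used. The 4 summary rows (unmapped, multiply matched, outside genes, ambiguous) stayed out of library sizes and tests.

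Shares and CPM were taken over gene-assigned reads. TMM factors came from edgeR 4.0.16 (R 4.3.3) over genes with at least 10 reads in both libraries, and size factors from DESeq2 1.42.0. Exact tests and intervals used scipy 1.17.1 in Python 3.11.15. The between-library test was tested on simulated data that held counting error only. Its error rate under the wider spread between these libraries was therefore not examined. Alternatives were other count columns, scalings, minimums, denominators and a pseudocount, leaving out each replicate, and edgeR's exact test.

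The members, lists and tests were chosen with earlier results of these data known. Genes named were the members, their host genes, the genes next to each member in order of mean CPM, and up to 2 genes of a list. Mir384, Mir30f and the neural genes at 0 were named beyond that rule.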

Additional observations from a re-analysis of the deposited data

Results flagged for a closer look

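Reads were present outside the counts used for the miR-30 genes, beyond the limit of 3 counts set for a count of 0. The totals of reads that match several places or lie outside microRNA genes cover the whole library, and their miR-30 part is not known. In replicate 1, 7195252 reads matched several places, and in replicate 2 this was true of 10919725 reads. How many of them are miR-30c-5p cannot be read from the tables. The counts on the strand opposite to Mir30f were 12066 and 15125. These equal the counts of Mir30e on its own strand, which were used, so they add no signal outside them. Reads placed uniquely but outside microRNA genes numbered 142257 and 232773.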

How the results depend on the processing

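The family's share of 4.09% was 4.82% with counts taken without regard to strand, 4.87% with the most abundant gene left out of the denominator and 0.700% with multiply matched reads added to it. Leaving out a replicate gave 3.88% to 4.29%. Counting without regard to strand also changed the denominator. Mir126a then had 1 read in each library, beside 140627 and 233890 on its own strand. Mir451a then had 0 reads, and Mir206 kept its counts. The 4.82% is thus not a higher count of miR-30 reads. Without regard to strand Mir30e had 0 reads, so its share of the family was 0%, that of Mir30a 64.5%, Mir30d 33.6% and Mir30b 1.08%, and the ratio of Mir30e to Mir30c-1 had no value. The share of Mir30c-1 in the family, 0.195%, was 0.118% without replicate 2 and 0.273% without replicate 1. Log2 ratios within loci moved by less than 1 SD with a pseudocount of 1 read. Called genes numbered 4 in place of 172, and called members 0 in place of 4, at the common dispersion (edgeR exact test). That dispersion counts every difference between these libraries as spread, so few calls are built in. Members called were 4 of 5 tested without regard to strand (62.2% of all genes tested), 6 of 6 by total reads (62.3%) and with no minimum (32.1%), and 5 of 6 with DESeq2 size factors (63.7%), without the most abundant gene (62.5%) and with at least 50 reads (76.0%). The ratio of Mir30e, 1.01, turned to 0.961 with scaling by total reads and to 0.953 with no minimum, both called. Mir30c-1 and Mir30c-2 stayed higher and Mir30a and Mir30d lower in replicate 2 under every scaling, minimum and count column run. The cause of these changes was not tested.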
